A study of Homo sapiens with 4 samples.

Results

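The intervals described here lie in 7 genes of splicing and RNA 3′ end processing: PCF11, CPSF6, RBM17, ACIN1, SON, SRRM2 and DHX34. They were all entries of 2 deposited m6A interval lists that overlapped a fixed hg19 window around one of these genes on the gene's strand. The windows held 19 entries of the CSE list (of 11038) and 19 of the knockdown list (of 13691), or 24 distinct intervals. The genes were proposed with these lists known, selected on the presence and the score of intervals in them: PCF11, RBM17 and ACIN1 hold the top-scoring intervals found in only one list. The values below are therefore a description, and no test was made on them.

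The study profiled N6-methyladenosine (m6A), a modified base of mRNA, by MeRIP-seq in the 16-HBE line of bronchial epithelial origin, an established human line. In this assay RNA recovered with an m6A antibody is sequenced beside untreated input RNA. The CSE group is labelled wild type and spent 24 h in medium with 5% cigarette smoke extract (CSE); the knockdown group received an siRNA against METTL3 and the same exposure. Each group has 1 IP library, 1 input library and 1 interval list, so there is no replicate spread for any value. No unexposed group and no control siRNA are named, so METTL3 reduction and transfection cannot be told apart. The lists hold no expression values, so neither the METTL3 level nor airway epithelial markers could be checked in them.

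METTL3 is the catalytic subunit of the nuclear complex that writes m6A into pre-mRNA, at a short consensus around a central adenosine. The mark is known to concentrate in long internal exons and near stop codons. The 7 genes act at different steps of mRNA processing and decay. PCF11 is a subunit of cleavage factor II and helps cut the transcript and end transcription, and CPSF6 is a subunit of cleavage factor I, which takes part in poly(A) site choice. RBM17 is a factor of 3′ splice site recognition, and ACIN1 is an RNA-binding protein of the ASAP complex that joins spliced mRNA. SON and SRRM2 are large scaffold proteins of nuclear speckles, where splicing factors gather. DHX34 is an RNA helicase known for its role in nonsense-mediated decay.

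The listed intervals coincided with exons. Widths and spacings were compared with the exons of the same gene in GENCODE release 29, an annotation of another build (GRCh38), without carrying any position between builds. In each gene the shift giving the most exact matches was used, so at least 1 match per gene follows from that choice. With it, 20 of the 24 intervals had both borders equal to those of an exon of any transcript to the base. The other 4 had 1 border equal. Against the single transcript used for each gene below, 18 of the 24 had both borders equal. For SRRM2 the match rests on the length of a single interval, 518 nt. The gene names of the windows thus fit the exon structure found in the lists, most clearly in ACIN1, where 5 of 5 intervals matched.

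The sequences of 8 coding exons are shown because 5 of them were listed in only one condition, and the other 3 are exons of the same genes listed in both. They are GENCODE release 29 transcript sequences (GRCh38), written 5′ to 3′ on the RNA strand with T for U, for the exon whose borders matched the interval. Exons up to 300 nt are given whole, and wider ones as the 120 nt coding stretch with the most consensus matches. Capitals mark matches to the m6A consensus, taken as NNACN with A or G at each of the first 2 places and A, C or T at the last. It was searched on the RNA strand only, and overlapping matches were counted separately.
ACIN1 exon 5, whole, knockdown list only: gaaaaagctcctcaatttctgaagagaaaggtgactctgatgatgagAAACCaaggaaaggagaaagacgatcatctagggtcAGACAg
ACIN1 exon 4, whole, both lists: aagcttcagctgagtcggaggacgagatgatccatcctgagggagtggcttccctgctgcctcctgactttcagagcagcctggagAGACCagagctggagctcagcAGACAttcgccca
RBM17 exon 4, whole, CSE list only: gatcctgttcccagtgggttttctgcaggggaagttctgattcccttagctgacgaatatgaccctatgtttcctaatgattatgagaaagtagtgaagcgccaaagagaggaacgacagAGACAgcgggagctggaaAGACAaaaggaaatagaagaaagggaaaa
RBM17 exon 3, whole, both lists: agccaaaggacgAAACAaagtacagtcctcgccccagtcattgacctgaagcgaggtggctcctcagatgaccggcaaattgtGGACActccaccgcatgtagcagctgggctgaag
PCF11 exon 5, bases 192 to 311, CSE list only: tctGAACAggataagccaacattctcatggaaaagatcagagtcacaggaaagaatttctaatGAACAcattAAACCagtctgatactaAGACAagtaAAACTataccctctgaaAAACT
PCF11 exon 8, bases 1352 to 1471, both lists: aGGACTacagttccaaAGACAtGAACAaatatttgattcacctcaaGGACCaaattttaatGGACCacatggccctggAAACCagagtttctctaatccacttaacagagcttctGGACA
CPSF6 exon 6, bases 1 to 120, CSE list only: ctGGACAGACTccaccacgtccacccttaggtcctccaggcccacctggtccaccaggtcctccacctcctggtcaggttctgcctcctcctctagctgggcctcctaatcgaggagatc
DHX34 exon 2, bases 412 to 531, CSE list only: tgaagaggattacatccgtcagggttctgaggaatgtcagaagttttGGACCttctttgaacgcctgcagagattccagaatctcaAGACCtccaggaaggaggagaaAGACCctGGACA

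ACIN1 exon 5 and exon 4 each held 2 consensus matches, and so did RBM17 exon 4 and exon 3. A match was common in exons of such lengths: of GENCODE coding-transcript exons within 10% of the length of ACIN1 exon 5, 75.5% held at least 1, and for RBM17 exon 4 the share was 90.0%. The GGACT form alone was absent from these 4 exons. It was found in 9.0% of exons as long as ACIN1 exon 5 and in 17.1% of those as long as RBM17 exon 4. A match is a description of the letters and not a mapped m6A site.

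Most of the intervals in these genes were listed in both conditions. Whether an entry present in only one list goes with the level of the transcript was not tested, since expression was not analysed here. On the CSE side 14 of 19 had a knockdown counterpart, or 73.7% (Wilson 95% interval 51.2 to 88.2), and the 14 pairs had identical borders. The other 5 were found only in the CSE list, 26.3% of the window intervals against 19.9% of the whole CSE list. Of the 19 knockdown intervals 5 were found only there, 26.3% (11.8 to 48.8) against 35.5% of the whole knockdown list. Both background percentages lie within the counting error of 19 intervals. Together they spanned 15340 nt under CSE and 13751 nt after knockdown. Each window stood alone on its strand: the nearest interval outside any of the 7 windows was 24694 nt away, beyond PCF11 in the CSE list.

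**Figure D1:**
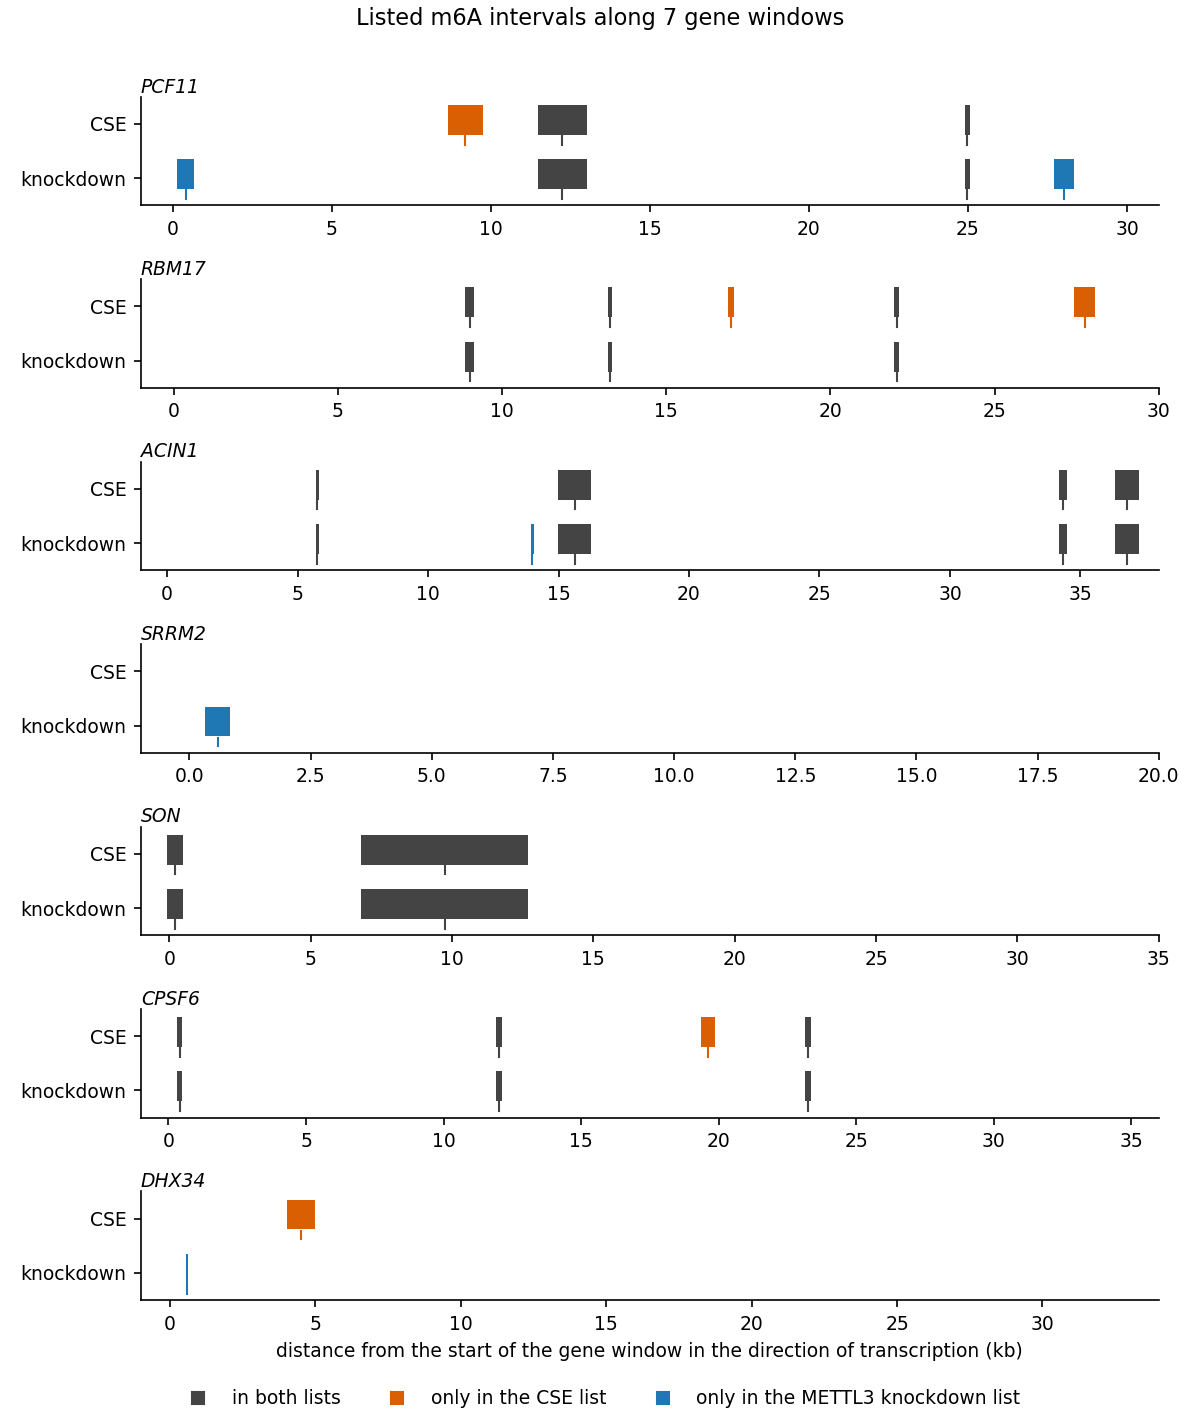
Intervals along the 7 gene windows, drawn to scale in kb from the window start in the direction of transcription, with the CSE list above the knockdown list and a tick below each interval's centre; the axis length differs between genes. Intervals in both lists (grey) have identical borders, ACIN1, SRRM2 and DHX34 each have 1 interval only in the knockdown list (blue) and PCF11 has 2, while RBM17 has 2 only in the CSE list (orange) and PCF11, CPSF6 and DHX34 have 1 each.

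Counted per exon, long exons were listed more often than short ones in these genes. A longer exon also offers more sequence for an interval to touch, and exons of other genes were not counted. Each gene was represented by the complete GENCODE coding transcript with the most matching exons, 101 exons in all. Of the 21 exons over 300 nt, 10 were touched by a CSE interval (47.6%) and 9 by a knockdown interval (42.9%). Of the 80 exons up to 300 nt, the numbers were 9 (11.2%) and 10 (12.5%). Listed exons had a median length of 415 nt, and the 77 exons in neither list one of 139 nt. The longest exon of the whole set, SRRM2 exon 11 with 6701 nt, was in neither list.

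**Figure D2:**
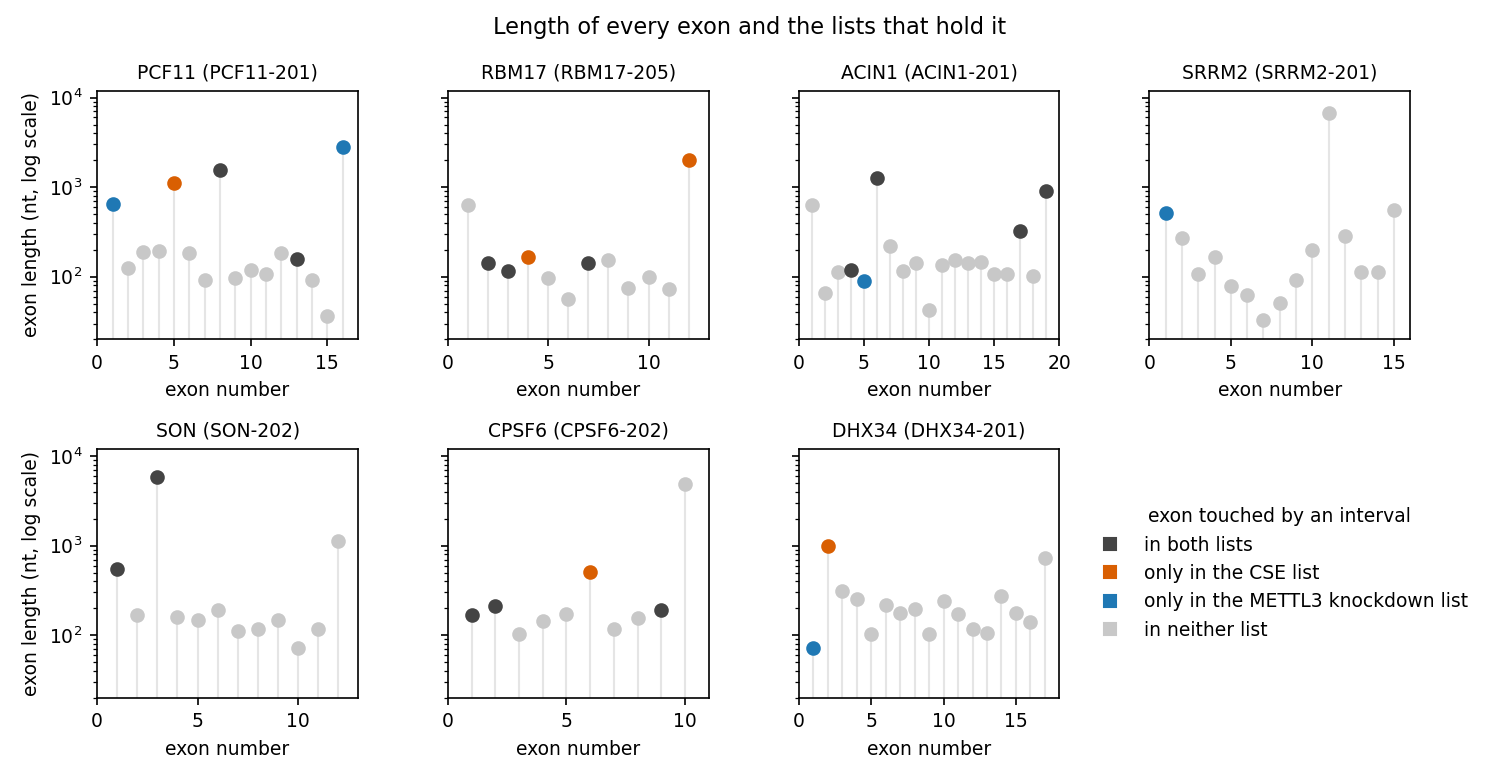
Length in nt (log scale) of each exon of 7 transcripts by exon number, coloured by the list whose intervals touch the exon. The longest exon was touched in both lists in ACIN1 and SON, in the knockdown list only in PCF11, in the CSE list only in RBM17 and DHX34, and in neither list in SRRM2 and CPSF6.

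The stop codon lay inside a listed interval in 4 of the 7 genes. In ACIN1 and CPSF6 that interval was in both lists. In RBM17 it was only in the CSE list, and in PCF11 only in the knockdown list. In SON, SRRM2 and DHX34 no listed interval held the stop codon. The start codon lay inside a listed interval in 5 of the 7 genes. That interval was in both lists in RBM17, SON and CPSF6, in the CSE list alone in DHX34 and in the knockdown list alone in PCF11. Neither total was set against a share over all genes, since the lists hold no gene names.

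PCF11 had 3 CSE intervals and 4 knockdown intervals. Its coding exon 5, 1115 nt at chr11:82876642-82877756 on the plus strand (hg19), was in the CSE list only, with a score of 3209. Scores were deposited by the authors on an unstated scale, and 10 intervals of the CSE list scored higher. Exon 8, 1568 nt at chr11:82879470-82881037, was in both lists, scoring 173 under CSE and 1969 after knockdown. Exon 13, 156 nt at chr11:82892896-82893051, was also in both, at 337 in CSE and 705 with knockdown. The knockdown list alone held parts of the first and last exons, at low scores. In the first exon this was 537 nt of exon 1 (chr11:82868137-82868673), which hold the start codon, with a score of 77.5. In the last exon it was the first 613 nt of the 2773 nt exon 16 (chr11:82895721-82896333), which hold the stop codon, at 86.7. The annotated ends of the transcript were outside both intervals. Of all knockdown intervals, 13.3% and 16.6% scored lower than these 2. Intervals took in 60.9% of the PCF11 coding sequence under CSE and 45.6% after knockdown.

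CPSF6 had 4 CSE intervals and 3 knockdown intervals. Exon 6, 505 nt at chr12:69652370-69652874 on the plus strand, was in the CSE list only, at a score of 73.1, and 14.3% of that list scored lower. The other 3 intervals were shared. Exon 1 (170 nt, chr12:69633317-69633486), with the start codon, scored 582 in CSE and 1047 with knockdown. Exon 2 (210 nt, chr12:69644909-69645118) scored 104 and 293, in the same order. The interval at exon 9 (193 nt, chr12:69656150-69656342), with the stop codon, scored 294 and 639.8. It began 3 nt ahead of the annotated exon of 190 nt. Exon 10, the 4847 nt last exon, has no coding sequence and was in neither list. The share of coding sequence inside intervals was 58.0% in CSE and 27.5% with knockdown, and exon 6 accounts for the difference by construction.

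RBM17 had 5 intervals in the CSE list, and 3 of them were in the knockdown list. Exon 4, 167 nt at chr10:6146894-6147060 on the plus strand, was in the CSE list only and scored 3193 there, with 16 intervals above it. It lies between exons that both lists hold. Exon 3 (117 nt, chr10:6143234-6143350) scored 598 in CSE and 988 with knockdown, and exon 7 (142 nt, chr10:6151949-6152090) scored 134 and 197. The shared interval at exon 2 (279 nt, chr10:6138873-6139151), which holds the start codon, scored 231 and 299. It began 138 nt ahead of exon 2 of the transcript used, which has 141 nt, and matched an exon of another transcript. The other CSE-only interval was the first 649 nt of the last exon, which hold the stop codon (chr10:6157416-6158064), with a score of 592. Intervals took in 54.0% of the coding sequence in CSE and 31.8% with knockdown. No RBM17 interval was found in the knockdown list alone.

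ACIN1 had the same 4 intervals in both lists and 1 more in the knockdown list. The shared ones include its longest exon, exon 6 with 1263 nt (chr14:23548756-23550018 on the minus strand), exon 17 with 325 nt (chr14:23530507-23530831) and 911 nt at the last exon with the stop codon (chr14:23527773-23528683). These 3 scored 3100 in each list. Exon 4 (120 nt, chr14:23559191-23559310) scored 320.3 in CSE and 792 with knockdown. The additional knockdown interval was exon 5, at 89 nt among the shortest of the transcript (chr14:23550957-23551045). Its score of 3227 was exceeded by 3 intervals of the knockdown list. Exon 5 lies between the shared exons 4 and 6, and the interval on exon 6 ended 938 nt from it. Coding sequence inside intervals was 50.5% in CSE and 52.7% with knockdown.

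SON was listed alike in both conditions, in contrast to SRRM2, the other speckle scaffold. The 5916 nt exon 3 of SON (chr21:34921782-34927697 on the plus strand), with 81.3% of the coding sequence, scored 3100 in each list. Exon 1 (552 nt, chr21:34914924-34915475), which reaches beyond the window start, scored 584 in CSE and 3100 with knockdown. SRRM2 has a like exon structure, with 81.2% of its coding sequence in the 6701 nt exon 11. None of its coding sequence was inside an interval of either list. Its 1 interval was the noncoding exon 1 (518 nt, chr16:2802330-2802847 on the plus strand), in the knockdown list only, with a score of 988. SRRM2 exon 11 held 119 consensus matches in 6701 nt, and SON exon 3 held 76 in 5916 nt. GGACT occurred 7 times in SRRM2 exon 11 and 13 times in SON exon 3. Exons within 10% of their lengths had median counts of 87 and 77 consensus matches, and 99.5% and 99.6% of them held GGACT. Why SRRM2 exon 11 was in neither list was not tested.

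DHX34 had 1 interval in each list, on different exons. In the CSE list it was exon 2, its longest with 982 nt, at chr19:47856011-47856992 on the plus strand, which holds the start codon and 20.6% of the coding sequence. In the knockdown list it was the noncoding exon 1, 72 nt at chr19:47852538-47852609. Both scored 3100, a value at which 620 CSE and 1113 knockdown intervals stood. The 2 exons are 3401 nt apart. The remaining 15 exons, among them the 725 nt last exon, were in neither list.

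The 14 shared intervals scored higher in the knockdown list in 10 cases and equal in 4, all of the latter at 3100. Over the 7258 intervals with identical borders in the whole lists, 73.2% scored higher with knockdown and 20.5% lower. The share in these genes, 71.4%, is near that background. Scores of separate lists are set side by side here and say nothing of a change in m6A. High scores were more frequent here than in the whole lists, which the choice of genes by score can set. A score of 3100 or more was held by 7 of the 19 CSE intervals (36.8%, against 5.98% of the list) and by 7 of the 19 knockdown intervals (36.8%, against 8.55%). Scores above 3100 were rare in the whole lists, held by 40 of 11038 CSE and 57 of 13691 knockdown intervals. Among intervals found only in the CSE list, 3 of 2200 scored above 3100, including PCF11 exon 5 and RBM17 exon 4. Among those found only in the knockdown list, 4 of 4855 did, including ACIN1 exon 5.

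**Figure D3:**
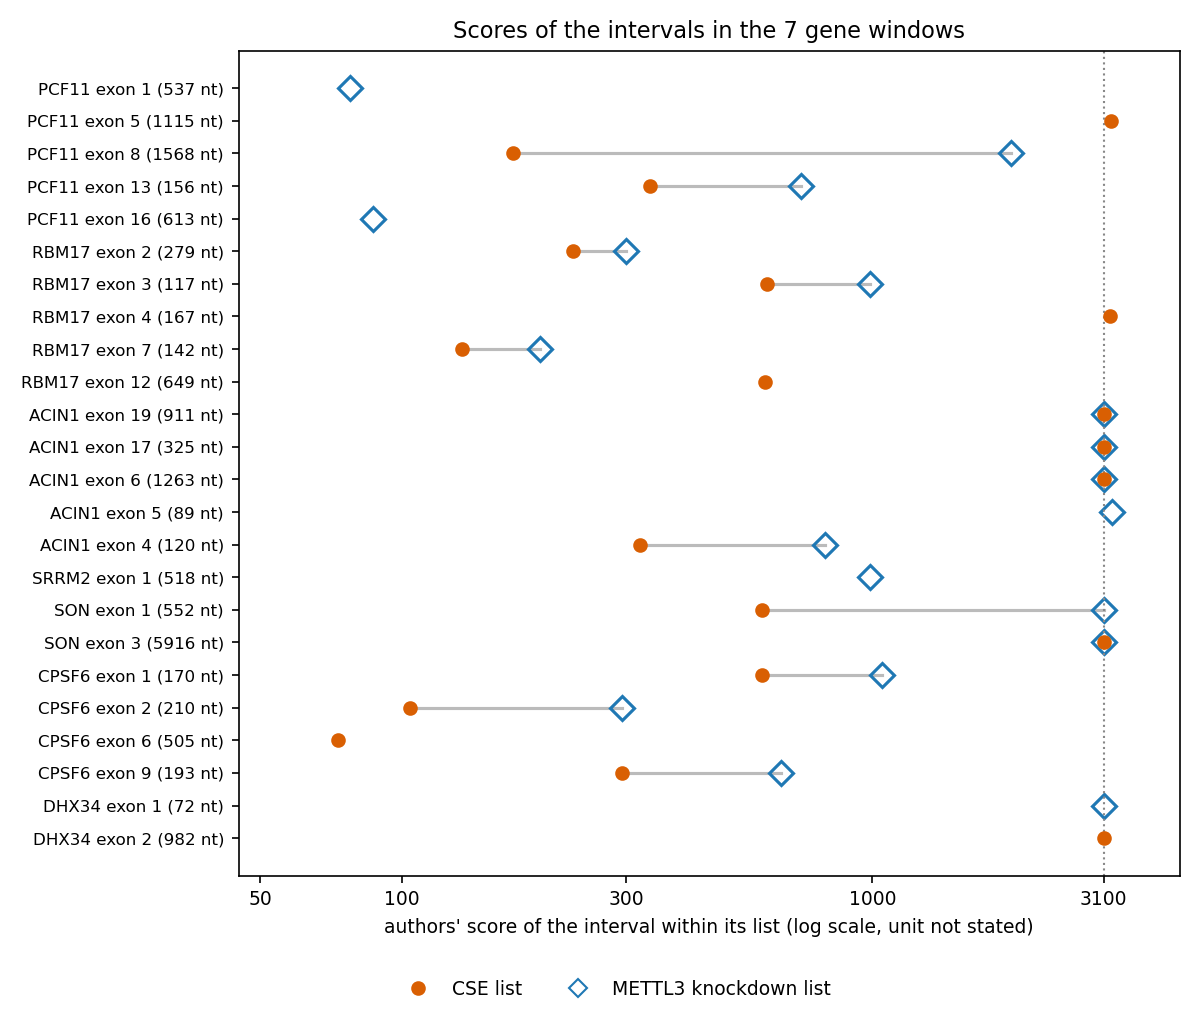
The authors' score (log scale) of each of the 24 intervals in the CSE list (filled circles) and the knockdown list (open diamonds), with the dotted line at 3100 and grey lines joining the 14 shared intervals. The score with knockdown is the higher one in 10 pairs and equal in 4; intervals found in only one list run from 73.1 to 3227.

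The missing entries were looked at through the running numbers in the interval names, which rose along each chromosome without a break in order in either list. Of the numbers up to the highest, 22.1% were listed in CSE and 28% with knockdown. For 9 of the 10 intervals found in only one list, the other list held another interval of the same gene, and the exception was SRRM2. This count was not set against a share over all such intervals, and the genes were chosen on the presence of intervals. For PCF11 exon 5 and CPSF6 exon 6, the knockdown intervals on each side had consecutive numbers. If the numbers count calls, no knockdown call lies between those flanking intervals. The same held for 8.23% of the 2187 CSE-only intervals with a knockdown interval on each side. At RBM17 exon 4 there were 2 unlisted knockdown numbers between the flanking intervals, and at ACIN1 exon 5 there was 1 unlisted CSE number. At DHX34 there were 5 in either direction, and at SRRM2 exon 1 there were 13. At PCF11 exons 1 and 16 and RBM17 exon 12 there were 4, 2 and 4. For DHX34, SRRM2, PCF11 exons 1 and 16 and RBM17 exon 12, at least 1 flanking interval lay outside the gene window. Those numbers therefore also cover sequence beyond the gene. For SRRM2 both did, the left one ending at chr16:2747998 and the right one starting at chr16:2998689. The numbers do not give where an unlisted call would lie.

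Longer exons held more consensus matches, as a count over more sequence can by length alone, so rates per 100 nt are given. The 14 exons listed in both conditions held 1.53 matches per 100 nt, the 5 CSE-only exons 1.59, the 5 knockdown-only exons 1.42 and the 77 exons in neither list 1.40. These rates cover whole exons and not the intervals. Intervals took in only 1829 of 4096 nt of the knockdown-only and 3418 of 4774 nt of the CSE-only exons. For the exons listed in both conditions, intervals spanned 11922 nt beside 11778 nt of exon, so some listed sequence was not searched. PCF11 exon 16, with 613 of 2773 nt listed, gave 43 of the 58 knockdown-only matches. All 278513 distinct exons of GENCODE basic coding transcripts held 1.36. The GGACT form had a wider spread, at 0.195 per 100 nt in exons listed in both conditions, 0.105 in CSE-only, 0.024 in knockdown-only and 0.068 in unlisted exons, beside 0.097 in all. These rest on few matches, 23, 5, 1 and 17 in that order, and 13 of the 23 lie in SON exon 3. Among the exons printed above, PCF11 exon 5 held 28 consensus matches, where exons of like length had a median of 14, and no GGACT. PCF11 exon 8 held 29, with a median of 21 in exons of like length, and 4 GGACT. DHX34 exon 2 held 14 beside a median of 12, and CPSF6 exon 6 held 6, the median for its length.

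**Figure D4:**
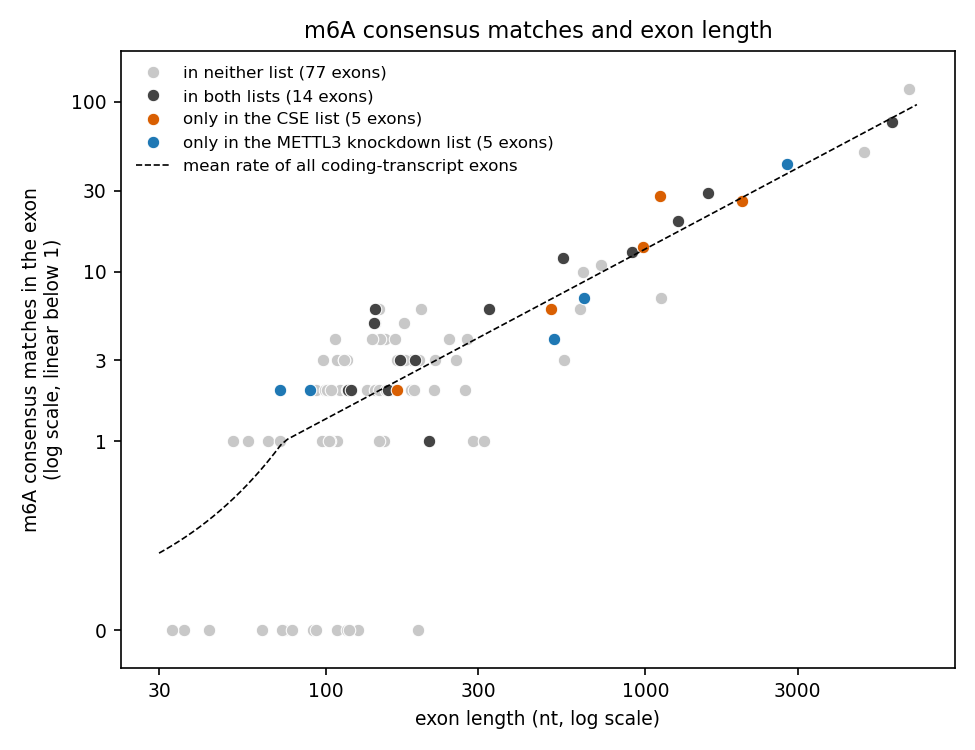
Number of consensus matches per exon (log scale, linear below 1) against exon length in nt (log scale) for the 101 exons, coloured by listing, with the mean rate of all GENCODE coding-transcript exons (1.36 per 100 nt) as a dashed line. Longer exons hold more matches, and exons scatter on both sides of the line, short ones most widely, from 0 matches to 6 in RBM17 exon 7 (142 nt).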

How the data were processed

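The submitters' processing notes name HISAT2 2.0.4 and the build hg19. Interval names begin with MACS, which is a peak caller. Its version and settings, and any pooling of the 3 replicates that the design text names, are not stated in those notes, the labels or the lists. The deposited score of an interval is the authors' own, on an unstated scale. Positions count from 1. Read depths were not used here. The genes and all measures were chosen with earlier results of these data known. All 7 windows were described, with every interval in them. Intervals overlapped when sharing at least 1 bp on 1 strand. Wilson intervals (SciPy 1.17.1, Python 3.11.15) cover counting error only and treat intervals as independent. Other definitions of overlap, a limit on score and wider windows were tried. The overlap code was tested on simulated data. The exon match and the consensus search were added after seeing the lists. The lists hold no gene names and the annotation is of another build, so other splicing and 3′ end processing genes were not analysed here.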

Additional observations from a re-analysis of the deposited data

How the results depend on the processing

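Of 62 values under alternatives, 57 equalled the reported one or stayed within its counting error or 1.5 times its count. The 57 include all values under other overlap definitions and wider windows, which could not change in these windows. That number is therefore no measure of stability. The other 5 moved, all when each list was limited to its better-scoring 50%. With that limit the covered length was 12915 nt in CSE and 12459 nt with knockdown. CPSF6 had 0 CSE-only intervals, because exon 6 falls below the score limit, and 1 knockdown-only interval, because exon 2 falls below it in CSE alone. PCF11 had 1 knockdown-only interval, exon 8, which falls below the limit in CSE alone, while its exons 1 and 16 fall below it with knockdown. The share overlapping the other list was then 73.3% in CSE and 68.8% with knockdown. Reciprocal overlap of 50%, identical borders and either strand changed no count of intervals found in only one list or no overlapping share. With all 14 overlapping pairs identical in borders and no interval on the opposite strand of a window, these definitions could change nothing. Windows widened by 10 kb added no interval and could add none, since the nearest one outside was 24694 nt away. With both borders within 50 nt, an alternative chosen after seeing the data, 22 of the 24 intervals matched an exon. No paired analysis was possible because each condition has 1 list and the result comes from no test.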
